A study of Homo sapiens with 54 samples.

Results

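TRA2A and its paralog TRA2B encode SR-like splicing factors, RNA-binding proteins that sit on exonic enhancer sequences and promote the use of the neighbouring splice sites. Each can act on the other's transcript through poison exons, cassette exons whose inclusion leads to decay of the mRNA, so that the level of one paralog depends on the other. NCI-H23 is an established line from a human lung adenocarcinoma, which the study classes as dependent on TRA2A for growth. The comparison described here asked how poly(A) RNA levels in these cells differed between a TRA2A knockdown (TRA2A KD) and a Control KD. It used 6 of the 54 libraries of the series, 3 per group, and the 16293 of 55906 listed genes that reached 1 TPM (transcript abundance scaled by transcript length and library total) in at least 4 of the 12 NCI-H23 libraries.

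All groups were made by CRISPR interference (CRISPRi), in which a catalytically dead Cas9 fused to the Zim3 repressor domain is guided to a promoter. The cells were a sorted population rather than 1 clone, they carried the Zim3-dCas9 fusion in every group including Control KD, and they were harvested 5 days after transduction of the guide vectors. Control KD cells received guides against safe-harbor loci. TRA2B KD and TRA2A/B DKD (both genes) libraries of the same line entered the same fit and are given only for contrast. Whether the 3 replicates were separate cultures is not given in the sources used here, so the p-values measure the spread between these libraries, which may be technical.

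The 2 TRA2A guides designed for CRISPRi are shown because their position defines what was silenced. Each is written 5′ to 3′, with the adjacent PAM in capitals.

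TRA2A isg1: agcctgcgaccgagtgggagTGG

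TRA2A isg2: cgctccactccactcccactCGG

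In hg38, isg1 matched the minus strand at chr7:23531949-23531971 and isg2 the plus strand at chr7:23531940-23531962, so that the sites overlap on opposite strands. TRA2A (ENSG00000164548.12) lies at chr7:23504780-23532041 on the minus strand in Gencode v44. Both sites fall in the 5′ UTR, with their upstream edges 10 and 19 bases inside the canonical transcript. Which of the 2 guides was used for these libraries is not given in the sources used here. The isg1 sequence had 1 exact genomic site next to an NGG PAM, and isg2 had 2, the other at chr1:52163440-52163462 within the body of ZFYVE9. Within 1000 bases of any annotated start of 14059 other tested genes, an NGG site with at most 4 mismatches to either guide was found at 2.1% of genes, and at 1 of the 93 searchable genes called lower in TRA2A KD (FMNL1, 1.08%) and 3 of the 53 called higher (7SK, CBWD2 and ITGB1BP1, 5.66%). A site matching the 10 bases next to the PAM was found at 0.42% of genes, at 0 of those 93 and at 1 of those 53 (CRABP2). These counts describe letters in a window and nothing about guide binding.

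TRA2A transcript fell to 6.54% of its control level. It was at 102, 107 and 105 TPM in Control KD and at 6.55, 7.01 and 6.97 TPM in TRA2A KD. The groups were far apart and the 3 knockdown libraries lay close together. The log2 fold change was -3.90 ± 0.07 (SE, n = 3 against 3; limma adjusted p = 1.38e-10). TRA2B moved the other way, from 80.3, 103 and 93.8 TPM to 136, 129 and 143 TPM, with no overlap and a log2 fold change of 0.58 ± 0.10 (limma adjusted p = 0.0237). The TRA2B call was lost without Control KD replicate 1 or 3 and without TRA2A KD replicate 1 or 3, where the adjusted p reached 0.0892, while the log2 fold change stayed between 0.53 and 0.63. Residual TRA2A was higher in TRA2A/B DKD, at 19.9, 21.4 and 23.1 TPM, than in TRA2A KD, with a difference of 1.46 ± 0.07 on the log2 scale (limma adjusted p = 1.48e-07).

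**Figure D1:**
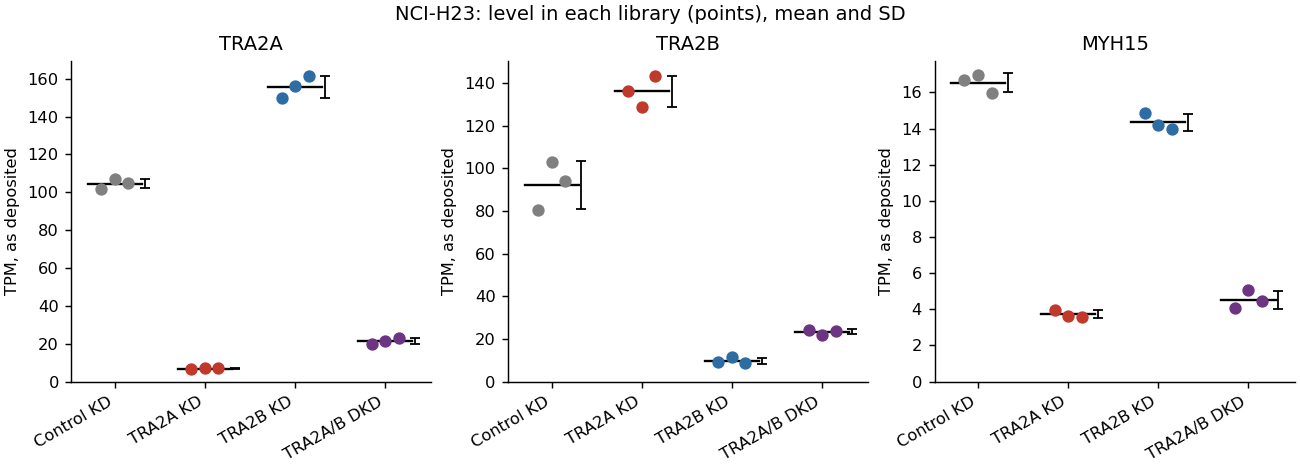
Level of TRA2A, TRA2B and MYH15 in each NCI-H23 library, in TPM as deposited on linear axes from 0, by group; points are libraries, horizontal lines means and bars SD (n = 3). TRA2A lies at 6.55 to 7.01 TPM in TRA2A KD against 102 to 107 TPM in Control KD, TRA2B is higher in TRA2A KD than in Control KD, and MYH15 is low in TRA2A KD and TRA2A/B DKD.

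The genes around TRA2A did not pass the test. Of 9 other tested genes that start within 500 kb, 0 were called by limma. The share called over all genes was 0.976%, so 9 genes are too few to show a difference from it. Their log2 fold changes ran from -0.15 for IGF2BP3 and FAM221A to 0.77 for KLHL7-AS1, a low long noncoding RNA (KLHL7-DT in current annotation). IGF2BP3, an oncofetal RNA-binding protein and the nearest tested protein-coding neighbour, was at 100.9, 99.5 and 91.6 TPM in Control KD and 90.8, 85.5 and 83.9 TPM in TRA2A KD. These libraries did not overlap, but the difference of -0.15 ± 0.07 gave a limma adjusted p of 0.406. The low transcripts KLHL7-AS1 and RPS2P32 also had groups that did not overlap, both higher in TRA2A KD. Across all tested genes 15.0% had groups that did not overlap.

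Across the transcriptome 61 genes were called higher and 98 lower at a limma adjusted p under 0.05, 0.976% of the genes tested, and 23 and 18 of them also changed by more than 1 on the log2 scale (0.252%). TPM as deposited gave 13 and 20, and quantile normalization 13 and 16. The median over all genes was 0.00 (log2). At an unadjusted p under 0.05 there were 1079 genes higher and 1139 lower. The calls lower in TRA2A KD were the steadier set: 44 of 98 held in all 6 fits with 1 library left out, against 14 of 61 of the calls that were higher. A fit of the 6 libraries alone, filtered and scaled anew (14316 genes), kept 3 calls, TRA2A, MYH15 and FAM189B.

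**Figure D2:**
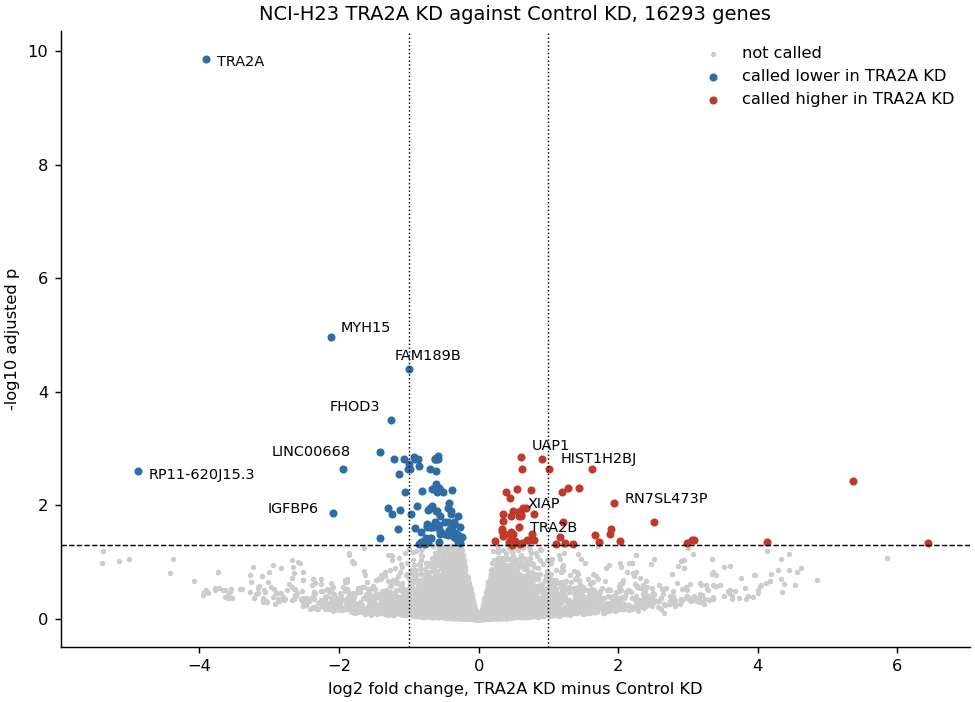
Log2 fold change (TRA2A KD minus Control KD, x axis) against -log10 adjusted p (y axis) for the 16293 tested genes; the dashed line marks an adjusted p of 0.05 and the dotted lines a log2 fold change of -1 and 1. TRA2A stands apart at the top left, followed by MYH15 and FAM189B, while most called genes changed by less than 1.

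MYH15, a slow-type myosin heavy chain gene at chr3:108380368-108529322, gave the strongest protein-coding decrease after TRA2A. It was at 16.7, 17.0 and 16.0 TPM in Control KD and 3.96, 3.62 and 3.58 TPM in TRA2A KD, a log2 fold change of -2.11 ± 0.11 (limma adjusted p = 1.1e-05). Its level in TRA2B KD was 14.9, 14.2 and 13.96 TPM, close to Control KD, and the direct difference between TRA2A KD and TRA2B KD was -1.79 ± 0.11 (limma adjusted p = 2.44e-05). In TRA2A/B DKD MYH15 was at 4.07, 5.06 and 4.46 TPM, and the difference from TRA2A KD was 0.11 ± 0.11 (limma adjusted p = 0.501).

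FAM189B (ENTREP3 in current annotation, chr1:155247205-155255483) fell from 55.7, 59.6 and 55.4 TPM to 30.3, 26.1 and 28.2 TPM, a log2 fold change of -0.997 ± 0.06 (limma adjusted p = 3.9e-05). Its near neighbour THBS3, a thrombospondin of the extracellular matrix whose start lies 46.4 kb away, fell from 41.9 ± 3.90 to 22.8 ± 2.83 TPM (SD, n = 3). ICE1, a subunit of the little elongation complex that serves small nuclear RNA genes, was at 10.4, 10.8 and 9.88 TPM in Control KD and 4.59, 5.39 and 4.62 TPM in TRA2A KD. Both groups were tight, and the log2 fold change was -1.06 ± 0.11 (limma adjusted p = 0.00152). FHOD3, a formin that organizes actin filaments, fell from 8.45 ± 0.55 to 3.46 ± 0.05 TPM. AMOTL1, an angiomotin that holds YAP in the Hippo pathway, fell from 10.6 ± 1.70 to 4.45 ± 1.20 TPM, and its call was lost without TRA2A KD replicate 1 or 3.

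IGFBP6, a secreted binding protein for insulin-like growth factors, was at 4.59, 7.75 and 6.53 TPM in Control KD and 2.01, 0.675 and 1.79 TPM in TRA2A KD. The groups did not overlap but each varied widely, and the log2 fold change was -2.09 ± 0.33 (limma adjusted p = 0.0135), not called without Control KD replicate 2 or 3. LGSN, a lengsin of the glutamine synthetase family, fell from 8.78 ± 1.68 to 3.85 ± 0.84 TPM, and its call depended on 3 libraries (Control KD replicates 2 and 3 and TRA2A KD replicate 3). SYT6, a synaptotagmin, fell from 7.03 ± 1.25 to 3.10 ± 0.13 TPM. ARMCX2, an armadillo-repeat gene of the X chromosome, fell from 19.1 ± 1.22 to 8.17 ± 1.04 TPM.

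Noncoding transcripts were among the largest decreases. RP11-620J15.3 was at 8.73, 9.57 and 9.97 TPM in Control KD and at 0.365, 0 and 0.665 TPM in TRA2A KD, a log2(TPM + 0.1) difference of -4.88 ± 0.58 (limma adjusted p = 0.00254). LINC00668, a long noncoding RNA, fell from 13.2, 17.9 and 19.7 TPM to 5.84, 6.81 and 5.84 TPM (-1.41 ± 0.13, limma adjusted p = 0.00117). RP11-356I2.4 fell from 10.1 ± 1.48 to 2.59 ± 0.83 TPM. NKILA, a long noncoding RNA known for restraining NF-kappaB, fell from 11.5, 13.3 and 11.8 TPM to 6.31, 6.29 and 6.24 TPM (-0.93 ± 0.09, limma adjusted p = 0.0014). Its start lies 1.38 kb from that of PMEPA1, a TGF-beta target gene on the other strand, and the 2 annotated genes overlap. PMEPA1 fell from 145 ± 11.9 to 90.7 ± 3.99 TPM. Whether reads of the overlap entered both values was not tested.

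TNFAIP3, the ubiquitin-editing enzyme A20 that dampens NF-kappaB signaling, was at 48.4, 70.5 and 70.0 TPM in Control KD and at 31.5, 24.1 and 28.1 TPM in TRA2A KD. All 3 knockdown libraries were lower, and the log2 fold change was -1.14 ± 0.14 (limma adjusted p = 0.00278). It was the 1 called member of 20 tested inflammatory cytokine and chemokine genes, beside 0.601% of all genes called lower, and the list median was 0.06. The kinase gene MAP3K8 and the tumor necrosis factor receptor gene TNFRSF1A are named after their values were seen. MAP3K8 was at 20.9 ± 3.34 TPM in Control KD and 11.6 ± 2.19 TPM in TRA2A KD, and TNFRSF1A at 102 ± 3.66 and 74.4 ± 1.27 TPM. Both were called lower with all libraries, but in 1 and 0 of the 6 fits with 1 library left out.

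Smaller decreases at higher expression had tight replicates. GRAMD1B, a sterol transfer protein, was at 138, 141 and 136 TPM in Control KD and 94.4, 89.6 and 91.2 TPM in TRA2A KD (-0.57 ± 0.05, limma adjusted p = 0.00133). METTL21A, a protein lysine methyltransferase, fell from 85.3 ± 1.51 to 56.4 ± 1.66 TPM, and HMCES, which shields abasic sites in DNA, from 72.8 ± 3.66 to 46.6 ± 4.08 TPM. PERP, a desmosome-associated p53 target that the p53 list below does not hold, fell from 49.2 ± 2.21 to 31.8 ± 1.45 TPM. DCTN2, a subunit of dynactin that couples dynein to its cargo, fell from 131 ± 10.7 to 84.0 ± 7.95 TPM. MBD6, whose annotated gene overlaps the end of DCTN2 on the other strand, was higher in TRA2A KD, at 41.1, 41.4 and 40.2 TPM against 29.1, 34.3 and 35.1 TPM (0.34 ± 0.06, limma adjusted p = 0.0258), a call that held in 1 of the 6 fits with 1 library left out. The library kit keeps strand, but how the quantification treated it is not given in the sources used here.

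**Figure D3:**
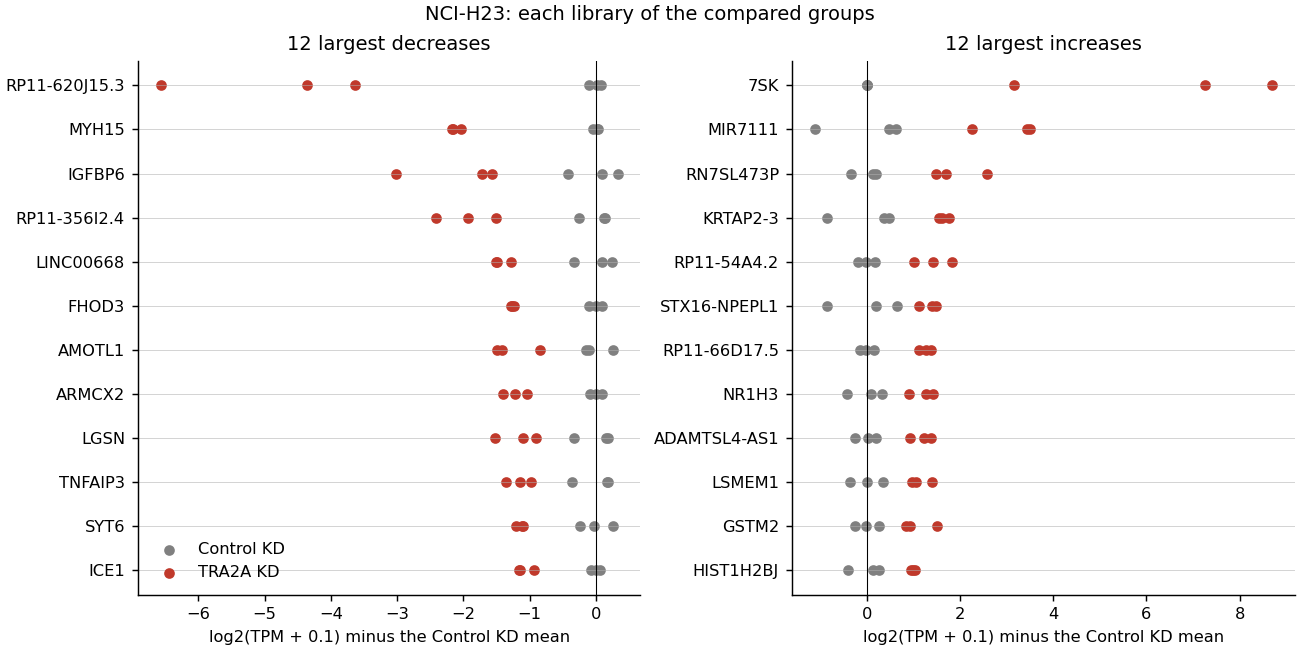
Log2(TPM + 0.1) of each library minus the Control KD mean (x axis) for the 12 largest decreases and the 12 largest increases among called genes of at least 5 TPM, with 3 Control KD and 3 TRA2A KD points per gene. No gene shows overlap, as the selection required; MYH15 and FHOD3 are tight in both groups, while 7SK and MIR7111 spread widely.

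The increases were led by small and repeated RNAs whose values varied. An entry named 7SK was listed at 0 TPM in every Control KD library and at 0.791, 41.0 and 15.27 TPM in TRA2A KD. Its call held in 1 of the 6 fits with 1 library left out. This entry is not read here as the level of 7SK RNA in the cells. RNU6-1053P, a U6 pseudogene, was listed at 0 TPM in every Control KD library and at 3.24, 3.17 and 5.38 TPM in TRA2A KD. RN7SL473P, a pseudogene of the signal recognition particle RNA, rose from 9.08, 6.56 and 9.58 TPM to 23.6, 50.1 and 27.1 TPM (1.94 ± 0.28, limma adjusted p = 0.00927). It lies 4.74 kb from the start of ADAMTSL4-AS1, which rose from 6.16 ± 0.97 to 14.1 ± 2.19 TPM. These RNAs have many near-identical copies and no poly(A) tail as a rule, so that values of single copies in poly(A) libraries are uncertain.

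Protein-coding increases were smaller. UAP1, the enzyme that makes UDP-N-acetylglucosamine, was at 71.6, 74.2 and 72.9 TPM in Control KD and 105, 110 and 113 TPM in TRA2A KD, with tight groups and a log2 fold change of 0.60 ± 0.06 (limma adjusted p = 0.0014). XIAP, an inhibitor of caspases, rose from 15.6, 14.8 and 15.6 TPM to 24.9, 27.3 and 24.9 TPM (0.76 ± 0.10, limma adjusted p = 0.00544). It was at 16.1, 15.8 and 17.8 TPM in TRA2B KD, lower than in TRA2A KD by a direct difference of 0.76 ± 0.10 (limma adjusted p = 0.00438). CTGF, a matricellular protein and YAP target, rose from 71.4 ± 8.40 to 108 ± 9.92 TPM. PXMP2, a peroxisomal membrane channel, rose from 35.9 ± 1.25 to 48.7 ± 2.73 TPM, and CBWD2, a member of a family of near-identical duplicated genes, from 22.1 ± 1.38 to 32.1 ± 1.63 TPM. NR1H3, the nuclear receptor LXR-alpha, rose from 3.44 ± 0.91 to 7.93 ± 1.38 TPM, a call that needed Control KD replicate 3 and TRA2A KD replicates 1 and 3.

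Of 11 tested SR proteins, 9 SR protein kinases, 52 other splicing regulators and 64 core spliceosome genes, 0 were called by limma at an adjusted p under 0.05, beside 0.976% of all genes. At an unadjusted p under 0.05, 15 of these 136 members were higher and 5 lower, beside 6.62% and 6.99% of all genes. The other splicing regulators held 10 higher and 3 lower of 52, and the core spliceosome 4 and 2 of 64. The SR proteins held 1 and 0 of 11, and their kinases 0 and 0 of 9. The 4 medians lay between 0.00 and 0.06 (log2), and single members ranged up to 0.88 for MBNL3, a muscleblind-like splicing regulator at 1.41 TPM in Control KD (limma adjusted p = 0.251). SRSF10, an SR protein that acts as a sequence-dependent splicing activator, was at 130 ± 11.8 TPM in Control KD and at 146 ± 14.4 TPM in TRA2A KD. U2AF1, the small subunit that recognizes the 3′ splice site, was at 17.0, 21.6 and 18.8 TPM against 37.4, 27.0 and 25.2 TPM, a difference of 0.64 ± 0.15 (limma adjusted p = 0.0853). Of 20 exon junction and nonsense-mediated decay factors, the exon junction core component MAGOHB was the 1 called, rising from 73.1, 82.1 and 91.8 TPM to 133, 106 and 132 TPM (0.60 ± 0.09, limma adjusted p = 0.0126). That call was lost without Control KD replicate 2 or TRA2A KD replicate 3.

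Centrosome and cilium genes had 3 called members among 102 tested, each lower in TRA2A KD, beside 0.601% of all genes called lower. The list median was -0.02 (log2). At an unadjusted p under 0.05 this list held 1 member higher and 8 lower, beside 6.62% and 6.99% of all genes. OFD1, a centriolar satellite protein needed for primary cilia, was at 12.5, 13.4 and 13.3 TPM in Control KD and 6.66, 8.87 and 7.60 TPM in TRA2A KD. The log2 fold change was -0.75 ± 0.13 (limma adjusted p = 0.0211), and the call held in 1 of the 6 fits with 1 library left out. CEP164, a distal appendage protein of the mother centriole, fell from 36.4, 43.6 and 39.6 TPM to 26, 27.4 and 29.9 TPM (-0.50 ± 0.07, limma adjusted p = 0.00584). TUBG1, the gamma-tubulin that nucleates microtubules, fell from 118 ± 3.54 to 89.6 ± 6.27 TPM, a call held in 2 of those 6 fits. Of 4 genes for which the study lists RT-PCR primers, OFD1, CHEK1, CEP192 and CNTRL, only OFD1 was called. Those primers assay exon splicing, which TPM per gene does not measure. By RT-PCR the study reports more skipping in OFD1 and CHEK1 after TRA2A KD in its dependent lines. The checkpoint kinase gene CHEK1 was at 42.4 ± 3.40 TPM against 43.1 ± 2.77 TPM (0.04 ± 0.09), and the centrosomal genes CEP192 and CNTRL differed by 0.09 ± 0.10 and -0.10 ± 0.11.

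Cell cycle lists had no called members by limma among 42 S phase, 54 G2/M, 22 ATR-CHK1 checkpoint and 25 spindle assembly checkpoint genes tested. The median was -0.06 for S phase genes and 0.08 for G2/M genes, with 31 of 42 S phase members below 0 and 38 of 54 G2/M members above it. The checkpoint medians were 0.01 and 0.09. At an unadjusted p under 0.05, 9 G2/M genes were higher and 1 lower, beside 6.62% and 6.99% of all genes. The S phase list held 1 higher and 2 lower at that level, the ATR-CHK1 list 3 and 0 and the spindle list 5 and 1. The mitotic kinesin CENPE was at 13.7, 13.4 and 16.6 TPM in Control KD and 16.7, 22.3 and 17.2 TPM in TRA2A KD (0.37 ± 0.16, limma adjusted p = 0.325). The 24 p53 targets and 15 BCL2 family genes also had 0 calls by limma, with medians of 0.12 and 0.03. At an unadjusted p under 0.05 these lists held 7 and 0 members higher and 1 and 1 lower.

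Metabolic and stress genes showed a few calls in either direction. Of 30 tested ATF4 and endoplasmic reticulum stress genes, PSAT1 of serine synthesis and ASNS, the asparagine synthetase, were higher in TRA2A KD, beside 0.374% of all genes called higher, and the list median was 0.14. PSAT1 rose from 40.6, 46.2 and 44.5 TPM to 56.8, 54.6 and 58.5 TPM (0.39 ± 0.05, limma adjusted p = 0.00583). ASNS rose from 75.3 ± 7.82 to 94.9 ± 4.60 TPM, a call held in 3 of the 6 fits with 1 library left out. Of 20 NRF2 targets, the ferritin light chain gene FTL and the efflux pump gene ABCC3 were called lower, beside 0.601% of all genes. FTL fell from 467, 482 and 505 TPM to 333, 269 and 353 TPM (-0.60 ± 0.09, limma adjusted p = 0.0127), a call lost without Control KD replicate 3. ABCC3 fell from 24.2 ± 0.54 to 17.7 ± 1.5 TPM, and its call held in 3 of those fits. SLC2A3, a glucose transporter and the 1 called member of 28 hypoxia and glycolysis genes (0.601% of all genes called lower), fell from 94.8 ± 7.24 to 71.5 ± 4.43 TPM, a call lost without Control KD replicate 2 or TRA2A KD replicate 3. Of 31 immediate early genes CTGF was called higher and the AP-1 subunit gene FOSL2 lower, beside 0.374% and 0.601% of all genes, the latter from 23.6 ± 0.95 to 15.5 ± 0.94 TPM. At an unadjusted p under 0.05 the ATF4 list held 11 members higher and 1 lower, beside 6.62% and 6.99% of all genes. The immediate early list held 10 and 4 at that level, the NRF2 list 4 and 4, and the hypoxia and glycolysis list 2 and 4.

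The lists of snoRNA host genes, interferon-stimulated genes, sterol synthesis, extracellular matrix and adhesion, and mitochondrially encoded genes had no called member by limma, with medians between -0.11 and 0.14. At an unadjusted p under 0.05 these 5 lists together held 9 of 119 members higher and 12 lower, beside 6.62% and 6.99% of all genes. The lists differed: extracellular matrix and adhesion held 4 higher and 8 lower of 38, and interferon-stimulated genes 0 and 3 of 22. Sterol synthesis held 3 and 1 of 25, snoRNA host genes 2 and 0 of 19, and mitochondrially encoded genes 0 and 0 of 15. COL1A1, a collagen chain, was at 29.3, 29.9 and 32.4 TPM in Control KD and 22.9, 12.6 and 17.7 TPM in TRA2A KD, a difference of -0.81 ± 0.19 that missed the threshold (limma adjusted p = 0.0788).

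**Figure D4:**
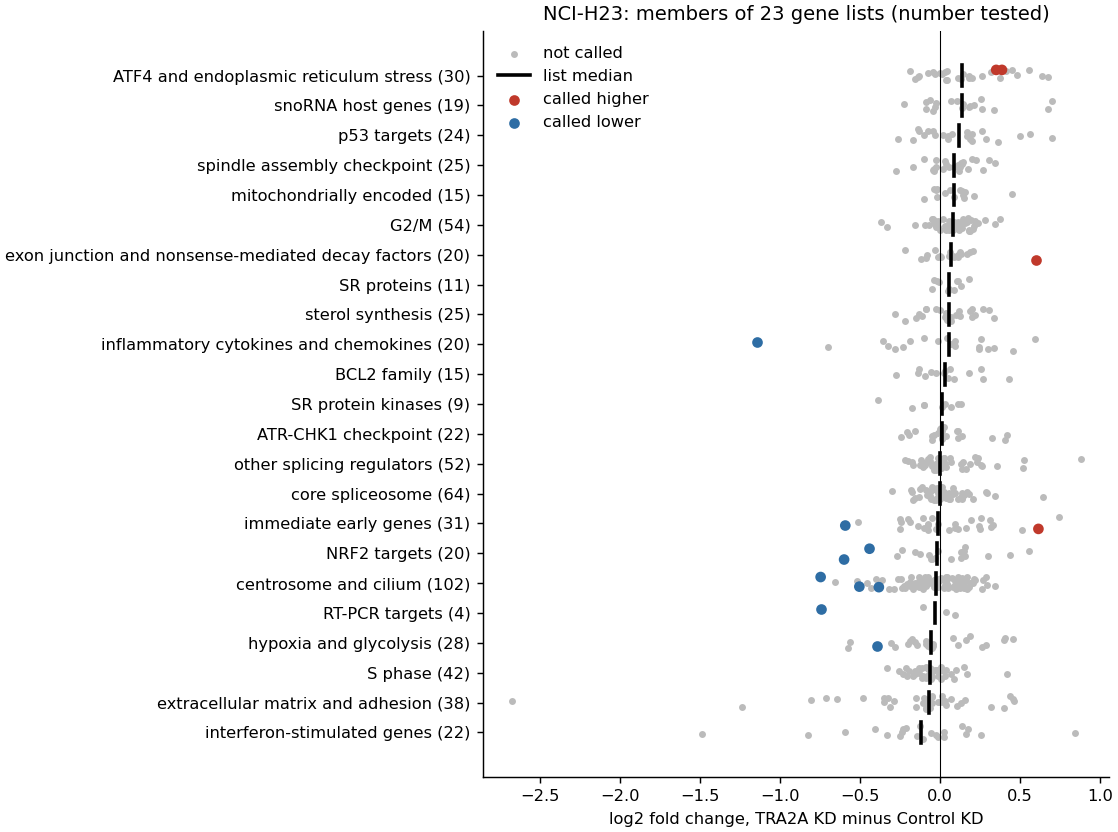
Log2 fold change (TRA2A KD minus Control KD, x axis) of every tested member of 23 gene lists, each row labelled with the number tested; grey points were not called, red and blue points were called higher and lower at an adjusted p under 0.05, and black ticks are list medians. Medians lie within 0.14 of 0 and called members are few in any list.

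Cell type markers were examined as a description of the libraries, and their levels cannot identify the line. Summed epithelial markers were at 1910.0 to 1976 TPM in Control KD and lower, at 1684 to 1885 TPM, in TRA2A KD. Most of this sum was KRT8 (751 to 792 TPM in Control KD and 617 to 698 TPM in TRA2A KD) and KRT18 (1118 to 1196 and 1060.0 to 1181 TPM), both simple epithelial keratin genes and neither called. KRT7 stayed at or below 4.49 TPM, KRT19 at or below 0.282 TPM, and EPCAM and CDH1 at or below 2.47 TPM. The lung lineage markers NKX2-1 and NAPSA stayed under 1 TPM and SFTPA1, SFTPC and SCGB1A1 were listed at 0, and SFTPB stayed at or below 0.157 TPM, so that these lineage markers were at or near 0. Summed immune markers were at 9.31 to 12.9 TPM in Control KD and 7.53 to 12.4 TPM in TRA2A KD, and summed endothelial, erythroid and glial markers stayed at or below 0.55, 0.481 and 2.88 TPM. The endothelial sum was higher in TRA2A KD (0.235 to 0.55 TPM) than in Control KD (0.0343 to 0.179 TPM). Summed fibroblast markers, mostly COL1A1, were at 33.6 to 38.5 TPM in Control KD and 15.5 to 28.8 TPM in TRA2A KD, while COL1A2, DCN and PDGFRB stayed at or below 0.294 TPM. The part of these sums in the results was not tested. Mitochondrially encoded transcripts took 23.1 to 31.9% of TPM in Control KD and 25.2 to 33.4% in TRA2A KD, so this share did not separate the groups. The highest shares were those of Control KD replicate 1 and TRA2A KD replicate 2. Correlations across genes were 0.904 to 0.945 among TRA2A KD libraries and 0.911 to 0.933 among Control KD libraries. Between the groups they were 0.892 to 0.943, so that the ranges overlapped. In these bulk samples, fewer cells of a kind and less RNA per cell cannot be told apart.

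The other NCI-H23 knockdowns are given for contrast. The 17 down DEGs other than TRA2A (called at a change above 1 on the log2 scale) had medians of -1.24 in TRA2A KD, -0.03 in TRA2B KD and -1.15 in TRA2A/B DKD. These 3 values share their Control KD libraries. In the direct contrast of TRA2A KD with TRA2B KD, 16 of the 17 were called lower, as were 73 of all 97 called decreases other than TRA2A, beside 1.26% of all genes. The same TRA2A KD libraries selected the genes, so that these counts are a description. RP11-250H24.2, chosen after its values were seen, was not among the 73, at -0.67 in TRA2A KD and -0.67 in TRA2B KD. The mitochondrially encoded share separated these groups, at 25.6, 33.4 and 25.2% of TPM in TRA2A KD and 17.8, 19.3 and 17.95% in TRA2B KD, and its part in these counts was not tested. The 23 up DEGs had medians of 1.72 in TRA2A KD, 0.74 in TRA2B KD and 3.09 in TRA2A/B DKD, and 6 of the 23 were called higher in the direct contrast, beside 0.638% of all genes. Over all genes that contrast held 65 DEGs (0.399%). TRA2A/B DKD exceeded TRA2A KD in 13 of these 23 genes, beside 16.9% of all genes called higher and 20.9% called lower in that contrast, which held 6163 called genes (37.8%) and 1553 DEGs (9.53%).

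Some genes differed between TRA2A KD and TRA2A/B DKD in direction. FTL was at 1469, 1161 and 1343 TPM in TRA2A/B DKD, above Control KD, and the direct difference from TRA2A KD was 1.89 ± 0.09 (limma adjusted p = 2.02e-07). LGSN was at 9.02, 10.5 and 11.9 TPM in TRA2A/B DKD, near its control level and higher than in TRA2A KD by 1.27 ± 0.20 (limma adjusted p = 0.000671). PXMP2, which was higher in TRA2A KD, was at 28.3, 26.4 and 29.5 TPM in TRA2A/B DKD, a difference of -0.96 ± 0.06 from TRA2A KD (limma adjusted p = 1.49e-06).

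The same knockdown in A549, a lung adenocarcinoma line the study classes as TRA2A-independent, came from separate libraries in a separately scaled table, and no test was run between the lines. In A549 TRA2A fell from 75.1 ± 5.08 to 7.18 ± 2.81 TPM and TRA2B differed by 0.39 ± 0.15 (limma adjusted p = 0.386). Of the 97 genes lower in NCI-H23 other than TRA2A, 89 were tested in A549 and 6 were called lower there (IGFBP6, LGSN, ICE1, FAM189B, CYP1B1 and MOB3A), beside 0.165% of all A549 genes. None of the 89 was called higher by limma. ICE1 fell in A549 from 23.2 ± 9.04 to 4.35 ± 0.18 TPM (-2.18 ± 0.18, limma adjusted p = 0.000515) and FAM189B from 22.8 ± 4.82 to 7.68 ± 1.07 TPM (-1.40 ± 0.14, limma adjusted p = 0.00144). Of the 61 genes higher in NCI-H23, 58 were tested and 2 were called higher in A549, AP1S2 and IVNS1ABP, beside 0.0488% of all genes. Called or not, 47 of these 58 lay above 0 in A549, with a median of 0.36 (log2). Of the 89 tested decreases, 63 lay below 0 there, with a median of -0.16. The median over all A549 genes was 0.02, and the share of all A549 genes with either sign was not counted.

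The LN229 and LN319 glioma libraries came from cells that overexpress luciferase (Luc), controls included. There TRA2A had been cut by Cas9 knockout rather than repressed, and cells were collected later after transduction than the 5 days of the CRISPRi lines. The TRA2A transcript was at 68.8 ± 4.82 and 35.5 ± 2.44 TPM against 109 ± 3.31 and 107 ± 5.65 TPM. In LN319, which the study classes as dependent, 28 of 59 tested genes from the NCI-H23 increases were called higher, beside 7.00% of all its genes, and 2 were called lower. Of 86 tested genes from the decreases, 22 were called lower there, beside 7.25%, and 7 higher. OFD1 was among them, falling from 31.6 ± 1.41 to 21.2 ± 2.29 TPM (-0.54 ± 0.06, limma adjusted p = 0.000265). In LN229, 6 of 58 were called higher beside 1.96% of all genes, and of 85 tested decreases 2 were called lower beside 1.83% and 6 higher. ICE1, which fell in both CRISPRi lines, was at 20.1 ± 1.18 TPM in LN229 controls and 22.1 ± 1.51 TPM in the knockout (limma adjusted p = 0.359) and rose from 40.7 ± 2.99 to 47.7 ± 2.75 TPM in LN319 (0.27 ± 0.07, limma adjusted p = 0.0212).

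**Figure D5:**
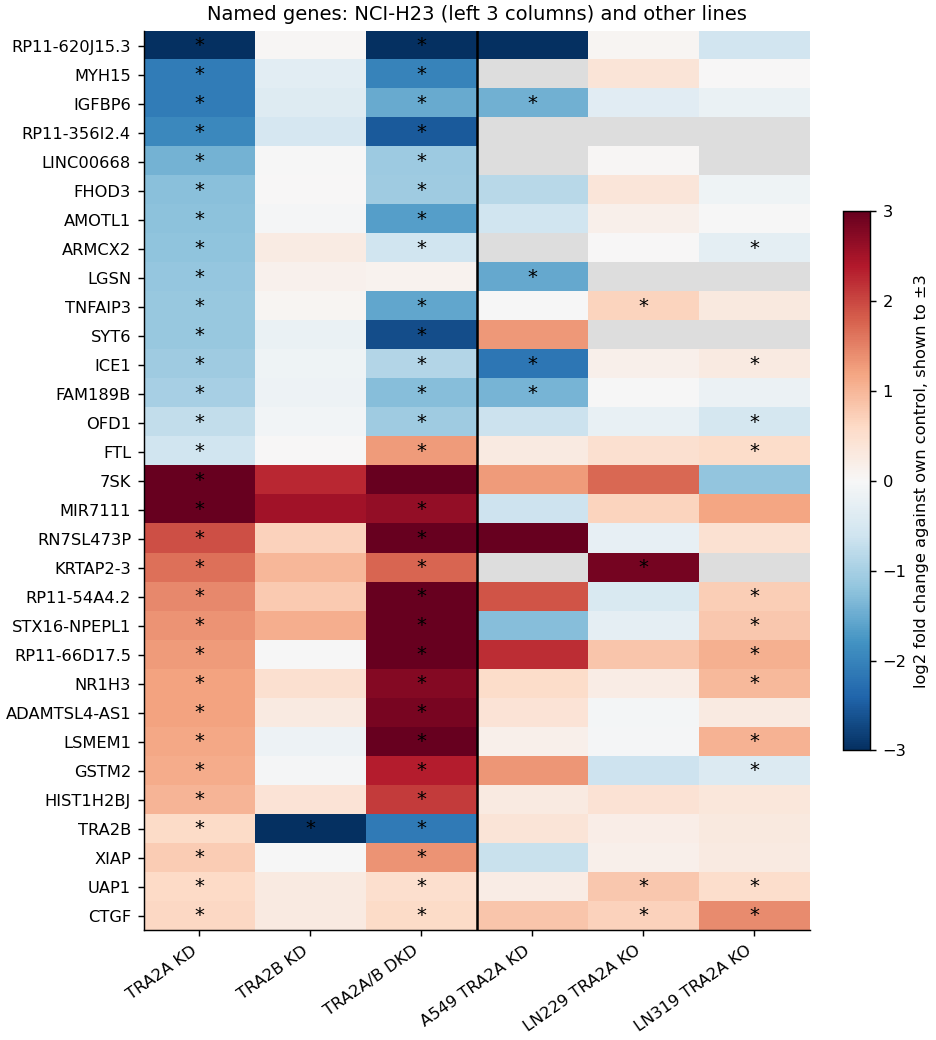
Log2 fold change of named genes against their own controls (color, shown to ±3) in the 3 NCI-H23 knockdowns, which share Control KD libraries, and in TRA2A KD or KO of A549, LN229 and LN319; asterisks mark an adjusted p under 0.05 and grey cells genes not tested. IGFBP6, LGSN, ICE1 and FAM189B are called lower in NCI-H23 and A549 TRA2A KD, and FTL is lower in TRA2A KD but higher in TRA2A/B DKD.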

How the data were processed

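Poly(A) RNA of 12 NCI-H23 libraries in 4 groups of 3 was compared. The authors quantified reads with kallisto 0.48.0 (Gencode v34, GRCh38) and deposited TPM per gene, 1 table per cell line. The study states a minimum sequencing depth for its libraries. TPM keeps no read depth, so the depth of each library is unknown here and no counting interval is given. Genes reaching 1 TPM in 4 or more NCI-H23 libraries were kept, values were scaled by a trimmed mean of log ratios (30% and 5% trims), and log2(TPM + 0.1) was fitted by group with limma 3.58.1 (R 4.3.3, empirical Bayes with a trend, Benjamini-Hochberg adjustment over 16293 genes). Fold changes on this scale understate the change of low genes. The study's own test used limma-voom on counts, which TPM do not allow. The fit was tested on simulated data. With 3 against 3 libraries, an exact two-sided permutation test of a single value cannot give p below 0.1, so p-values come from limma.

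Members and gene lists were chosen with earlier results of these data known. Named were TRA2A, TRA2B, 4 genes with listed RT-PCR primers, tested genes starting within 500 kb of TRA2A, per direction the 12 DEGs (log2 change above 1) of largest change and the 12 called genes of smallest p, both without overlap and with a mean of at least 5 TPM in either group, and per list the called members, or else up to 2 of largest change. Genes outside this rule (such as MBD6, KLRA1P, MAP3K8, TNFRSF1A, the markers and those called in A549) were chosen after their values were seen, and not all genes it selects are described. No 2 libraries were identical. TRA2A KD and Control KD libraries of the same replicate number did not deviate together (deviation correlations -0.0789, -0.0702 and -0.014). Names were matched to Gencode v44 on hg38 (14060 of 16292), and guides come from the study's table. Alternatives were pseudocounts of 0.5 and 1, other filters (none, 5 TPM), scalings, fits of the compared groups only, a replicate block and each library left out.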

Additional observations from a re-analysis of the deposited data

Results flagged for a closer look

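A few genes lay on one side of 0 in every NCI-H23 TRA2A KD library and on the other side in every A549 TRA2A KD library, each relative to its own control mean. The difference between the lines was not tested. The log2 fold change of SYT6 was -1.13 in NCI-H23 and 1.31 in A549, where it was near 1 TPM in the controls (1.08 ± 0.91). That of PERP was -0.61 and 0.28. That of FTL was -0.60 and 0.28, from a control level of 7078 ± 1443 TPM in A549 against 485 ± 18.9 TPM in NCI-H23. That of SLC2A3 was -0.39 and 0.52. That of XIAP was 0.76 and -0.67, and its A549 controls varied widely (33.5 ± 21.8 TPM). By limma, 0 of these 5 A549 differences passed an adjusted p of 0.05 (lowest 0.168).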

How the results depend on the processing

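TPM carry no depth, 3 libraries per group limit the precision, and most calls were lost in a fit of the compared groups only, which changed the libraries, the filter and the scaling together (14316 genes tested). The 41 DEGs became 159 genes with no minimum fold change and 2 when only the groups compared were fitted, and ranged from 27 (without TRA2A KD replicate 3) to 49 with 1 library left out. The 159 genes at an adjusted p under 0.05 became 100 with no filter, 3 with only the groups compared and 104 with the replicate block, and ranged from 77 (without TRA2A KD replicate 3) to 144 with 1 library left out, falling by over 1.5 times also without each Control KD replicate (102, 104 and 96). The block kept 96 of the 159 and left 30 DEGs. Same-numbered TRA2A KD and Control KD libraries did not deviate together (none correlated best with its own number). How the replicates were set up is not given in the sources used here, so whether the block matches the design is unknown. Without TRA2A KD replicate 3, 16 calls were higher and 61 lower, against 61 and 98. TPM as deposited gave 34 higher and 75 lower calls, and its shift of the all-gene median was -0.02. TRA2A stayed called in every alternative, from -3.93 to -3.86 with 1 library left out. The log2 fold change of TRA2B was no longer called with no filter (0.58), TPM as deposited (0.57) or only the groups compared (0.58), and ranged from 0.53 to 0.63 with 1 library left out. The 65 DEGs between TRA2A KD and TRA2B KD became 309 with no minimum fold change, 106 with TPM as deposited and 20 with only the groups compared, and ranged from 39 (without TRA2B KD replicate 3; 43 and 41 without the other TRA2B KD replicates) to 112 (without TRA2A KD replicate 1). Their 19 higher and 46 lower became 19 and 87 with TPM as deposited. The 1553 DEGs between TRA2A/B DKD and TRA2A KD became 6163 with no minimum fold change and 790 with a minimum of 5 TPM. That comparison's 857 higher and 696 lower DEGs became 1220 and 403 with TPM as deposited, 719 and 952 with quantile normalization and 1399 and 673 with no filter.

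Of 322 list medians under the alternatives, 18 moved by more than their spread over libraries. The p53 target median of 0.12 became 0.0745 with no filter, 0.17 with a minimum of 5 TPM and 0.17 with only the groups compared, and ranged from 0.0902 to 0.153 with 1 library left out. The centrosome and cilium median of -0.02 became -0.038 with TPM as deposited and ranged from -0.0227 to 0.00174. With 1 library left out the other medians that moved ranged from 0.00362 to 0.0301 (other splicing regulators), 0.0183 to 0.0792 (exon junction and decay factors), 0.0768 to 0.106 (G2/M), -0.0124 to 0.0362 (ATR-CHK1), 0.0497 to 0.126 (spindle checkpoint) and -0.0491 to 0.0635 (NRF2 targets). Among named genes 12 values changed sign, all of genes that were not called. These were FAM221A (0.0286 with quantile normalization, and from -0.504 to 0.48 with 1 library left out, 0.20 without Control KD replicate 3, highest without TRA2A KD replicate 2), AK3P3 (from -0.556; 0.33 and 0.06 without Control KD replicate 1 and 3, 0.23 without TRA2A KD replicate 1), SRSF5 (-0.11 without Control KD replicate 1, -0.04 without TRA2A KD replicate 1, up to 0.371), CLK1 (-0.0308 without Control KD replicate 1, up to 0.19), CHEK1 (-0.0214 and -0.0065 without Control KD replicate 2 and 3, up to 0.146) and CEP192 (-0.0318 without TRA2A KD replicate 3). Their causes were not tested.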

Other observations

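Clustered histone genes, whose mRNAs mostly end in a stem-loop rather than a poly(A) tail, were examined after seeing the data. Of 53 tested, 4 were called higher in TRA2A KD and 0 lower by limma, beside 0.374% and 0.601% of all genes. At an unadjusted p under 0.05 there were 17 and 2, beside 6.62% and 6.99% of all genes, and the median was 0.35 (log2) beside 0.00 for all genes. HIST1H2AC was at 9.30, 12.1 and 12.7 TPM in Control KD, 21.3, 19.3 and 22.5 TPM in TRA2A KD and 115, 95.3 and 120 TPM in TRA2A/B DKD, and the difference between TRA2A/B DKD and TRA2A KD was 2.21 ± 0.09 (limma adjusted p = 8.83e-08). HIST1H2BJ rose from 12.6, 19.8 and 18.2 TPM to 34.1, 33.2 and 32.0 TPM in TRA2A KD (1.01 ± 0.12, limma adjusted p = 0.00228). HIST1H2BK and HIST2H2BE, at 172 ± 18.4 and 7.97 ± 1.69 TPM in TRA2A KD against 115 ± 19.9 and 4.57 ± 0.71 TPM, were called in 3 and 2 of the 6 fits with 1 library left out. The lowest of the 53 was HIST1H3D, at 1.21 ± 0.45 TPM in Control KD and 0.385 ± 0.556 TPM in TRA2A KD (-2.12, limma adjusted p = 0.23). These genes have near-identical copies, so single values are uncertain.

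Among 147 called genes with a position, 6 pairs had starts within 100 kb of each other. In 5 pairs both genes moved the same way: FAM189B and THBS3, NKILA and PMEPA1, HIST1H2BJ and HIST1H2BK, ADAMTSL4-AS1 and RN7SL473P, and KLRA1P and MAGOHB. DCTN2 and MBD6 moved in opposite directions. The annotated genes of that pair, and those of NKILA and PMEPA1, overlap on opposite strands. How many tested genes start this close to each other, and what share of them move the same way, was not counted. These pairs are therefore a description.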
